A study of Mus musculus with 10 samples.

Results

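Ccnd2, A2m and Vwf are the 3 genes of the authors' deposited list of changed probe sets that align to the distal end of mouse chromosome 6, more than 100 Mb from Dlx6. Every listed probe set carrying one of these symbols was taken, which gave 3 of the 96 listed probe sets, 1 for each gene, out of 45101 probe sets on the array. Gene names were used only from that list, so each gene was read from the probe set that passed the authors' thresholds. Any further probe sets of the 3 genes on the array were not listed under these symbols and were not analysed here. Whether such probe sets would show the same differences is therefore not known. Results named for a gene below are those of the 3 listed probe sets, 1 for each gene. They were chosen by the authors' own comparison of mutant with wildtype on these same arrays, at a corrected p of at most 0.05 and a fold change of at least 2. Their genotype differences are therefore described here with their errors and carry no test. A2m, 115 Mb from the start of the Dlx6 alignment, was the member nearest to the distance limit, and the next listed probe set of chromosome 6 towards Dlx6, that of Akr1b8, lay at 27.5 Mb.

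The arrays measured total RNA from mouse embryos at E13.5 (embryonic day). The tissue was the medial ganglionic eminence (MGE), the part of the ventral forebrain from which many cortical interneurons arise. Evf2TS/TS mutant pools, which do not express the long non-coding RNA Evf2, numbered 5 (3 male and 2 female), and Evf2+/+ wildtype pools also numbered 5 (2 male and 3 female). Both genotypes were on a mixed background of 129Sv, Bl6 and Fvbn, and each pool joined 4 MGE of 2 brains, so a value is that of a pool and not of an embryo. Evf2 is transcribed antisense to Dlx6, in the region of the Dlx5 and Dlx6 genes. Loss of Evf2 was visible in every mutant pool. The probe set named Evf2 (Dlx6os1 in RefSeq) read 58.1 in mutant replicate 1 and 9.47 to 16.5 in the other mutant pools, against 453 to 901 in wildtype pools.

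The 3 genes encode proteins of different function. Ccnd2 encodes cyclin D2, which binds the kinases Cdk4 and Cdk6 and carries dividing cells from G1 into DNA synthesis, and it is a cyclin of neural progenitors in the embryonic forebrain. A2m encodes alpha-2-macroglobulin, a secreted protein that traps proteases and binds cytokines. Vwf encodes von Willebrand factor, the large glycoprotein of endothelial cells and megakaryocytes that tethers platelets to damaged vessels and carries coagulation factor VIII. In pooled tissue, fewer cells of a type and less RNA per cell cannot be told apart.

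In the authors' deposited table the A2m probe set 1434719_at aligned to chromosome 6 from 121624839 to 121629256 on the plus strand. The Vwf probe set 1435386_at aligned from 125608777 to 125636697 on the plus strand, and the Ccnd2 probe set 1448229_s_at from 127078450 to 127101011 on the minus strand. The suffix of the Ccnd2 probe set marks a design whose probes can match more than a single transcript. The table names no genome build, and no exon or UTR is assigned to the probes here. The starts lay 115 Mb (A2m), 119 Mb (Vwf) and 120.3 Mb (Ccnd2) from that of the Dlx6 alignment. The gap between the A2m and Vwf alignments was 3.98 Mb and that between Vwf and Ccnd2 1.44 Mb. The members were thus near one another but were not neighbours: in the gene order of RefSeq GRCm38.p6, 82 protein-coding genes separate A2m from Vwf and 13 separate Vwf from Ccnd2. A2m lies between Iqsec3 and Mug1, which encodes murinoglobulin, another alpha-macroglobulin. Vwf lies between Cd9 and Ano2, and Ccnd2 between Tigar and Parp11. No transcript, protein or promoter sequence of the 3 genes was used here.

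The 3 genes did not differ in one direction. Ccnd2 and Vwf were higher in mutant MGE and A2m was lower, and mutant and wildtype pools did not overlap at 3 of 3 probe sets. Groups did not overlap at 3.07% of all 45037 probe sets that are not controls. As the choice of members used this contrast, nothing is read from the members' count.

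Ccnd2, read from its 1 listed probe set, was higher in every mutant pool than in any wildtype pool. Its signal, a linear intensity, was 2354, 2141, 2062, 1655 and 2377 in mutant replicates 1 to 5, against 746, 745, 648, 652 and 528 in wildtype replicates 1 to 5. The lowest mutant pool, replicate 4, was still 2.22 times the highest wildtype pool. Ccnd2 averaged 2118 ± 292 in mutant pools and 664 ± 89.7 in wildtype pools (SD, n = 5 each), a ratio of means of 3.19. On the log2(signal + 16) scale, where 16 is a pseudocount that damps noise of dim probe sets, the difference with sex as a covariate was 1.69 ± 0.12 (SE). The spread relative to the mean was alike in both genotypes, with a coefficient of variation of 13.8% in mutant and 13.51% in wildtype pools.

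A2m was the 1 member that was lower in mutant MGE. Its signal was 36.5, 28.9, 37.4, 36.7 and 26.7 in mutant replicates 1 to 5, against 78.6, 52.7, 104, 78.2 and 77.7 in wildtype replicates 1 to 5. Wildtype replicate 2, at 52.7, lay nearest to the mutant pools, and wildtype replicate 3, at 104, farthest from them, while the remaining wildtype pools were within 1 signal unit of each other. A2m averaged 33.3 ± 5.03 in mutant pools and 78.3 ± 18.1 in wildtype pools (SD, n = 5 each), with a log2 difference of -0.93 ± 0.15 (SE). The ratio of means was 0.425. In mutant pools the values were dim enough for the pseudocount to set much of the size: the log2 difference was -1.20 with pseudocount 1 and -0.54 with pseudocount 64.

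Vwf was dim in both genotypes. Its signal was 52.9, 45.1, 65.7, 52.3 and 56.6 in mutant replicates 1 to 5, against 20.2, 22.4, 38.2, 15.5 and 19.2 in wildtype replicates 1 to 5. Wildtype replicate 3 was the high wildtype pool, and the lowest mutant pool exceeded it only 1.18 times. In wildtype replicates 1, 2, 4 and 5 Vwf lay below the median signal of its own array, which was 23.5 to 24.9, while every mutant pool lay above its array median. No detection call was used here, so the wildtype level of Vwf is not shown to be above background, and the size of the ratio below is uncertain for that reason. Vwf averaged 54.5 ± 7.52 in mutant pools and 23.1 ± 8.80 in wildtype pools (SD, n = 5 each), with a ratio of means of 2.36 and a log2 difference of 0.89 ± 0.15 (SE). The wildtype coefficient of variation, 38.1%, was the largest among the 3 genes in either genotype, against 13.8% for Vwf in mutant pools. The log2 difference was 1.29 with pseudocount 1 and 0.45 with pseudocount 64, while that of Ccnd2 was 1.72 and 1.62 at the same settings.

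**Figure D1:**
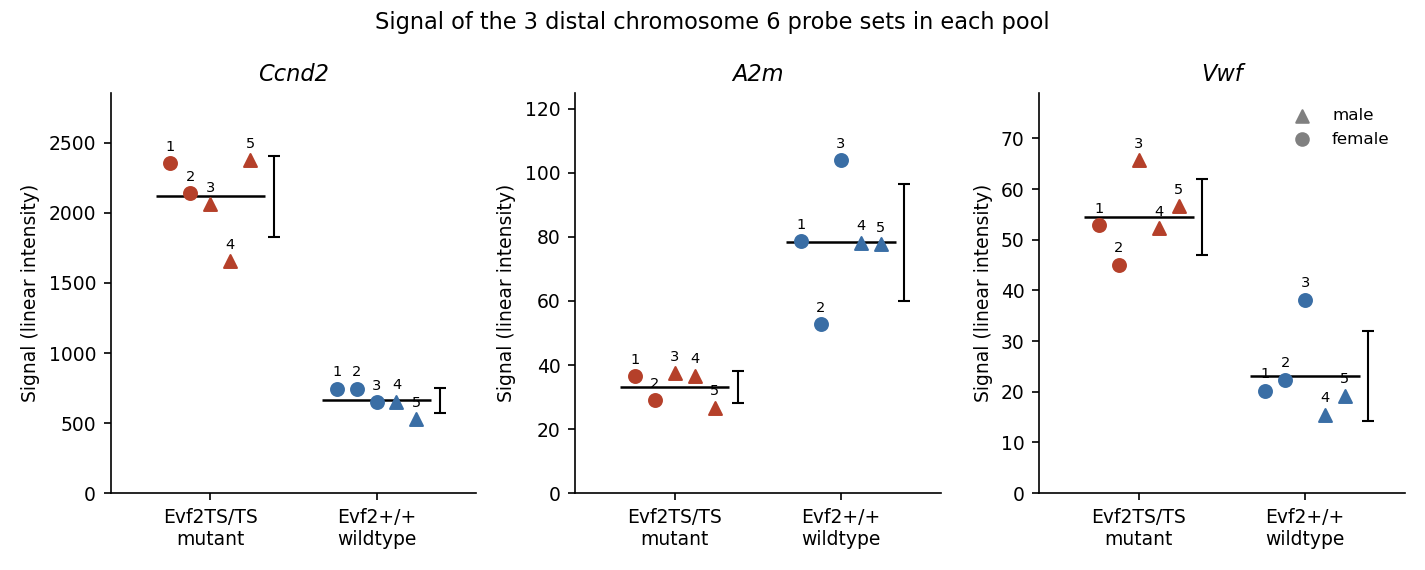
Signal (linear intensity, vertical axes from 0) of Ccnd2, A2m and Vwf in each of 5 mutant and 5 wildtype pools, numbered by replicate, with triangles for male and circles for female pools. Lines are means and brackets the mean ± SD: the genotypes do not overlap at any of the 3, and wildtype replicate 3 is the highest wildtype pool for both A2m (104) and Vwf (38.2).

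The authors' deposited table gave the same directions with other levels. Its absolute fold change was 3.04 for Ccnd2, 2.23 for Vwf and 2.09 for A2m, where the smallest in the list was 2.01. By size of fold change Ccnd2 ranked 50, Vwf 78 and A2m 89 among the 96 listed probe sets, so A2m and Vwf stood close to the limit of 2. The authors' levels in the deposited table were 3518 in mutant and 1151 in wildtype for Ccnd2, 76.1 and 157 for A2m, and 114 and 49.7 for Vwf. They exceed the averages of the value table, so they come from another summary of the arrays, and the 2 sets of levels are not comparable.

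On chromosome 6, 11 listed probe sets had a single alignment. The 3 distal ones were separated from the other 8 by 87.3 Mb without a listed probe set, as the plot against distance from Dlx6 shows. Dlx6, a homeobox gene of the interneuron lineage that overlaps Evf2, differed by 1.16 ± 0.17, and Akr1b8, an aldo-keto reductase at the distal edge of the proximal group, by 1.94 ± 0.10 (log2, SE). The size for Ccnd2 (1.69) lay between these. The sizes for the dim A2m and Vwf depend on the pseudocount, so they were not ranked among the 11.

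**Figure D2:**
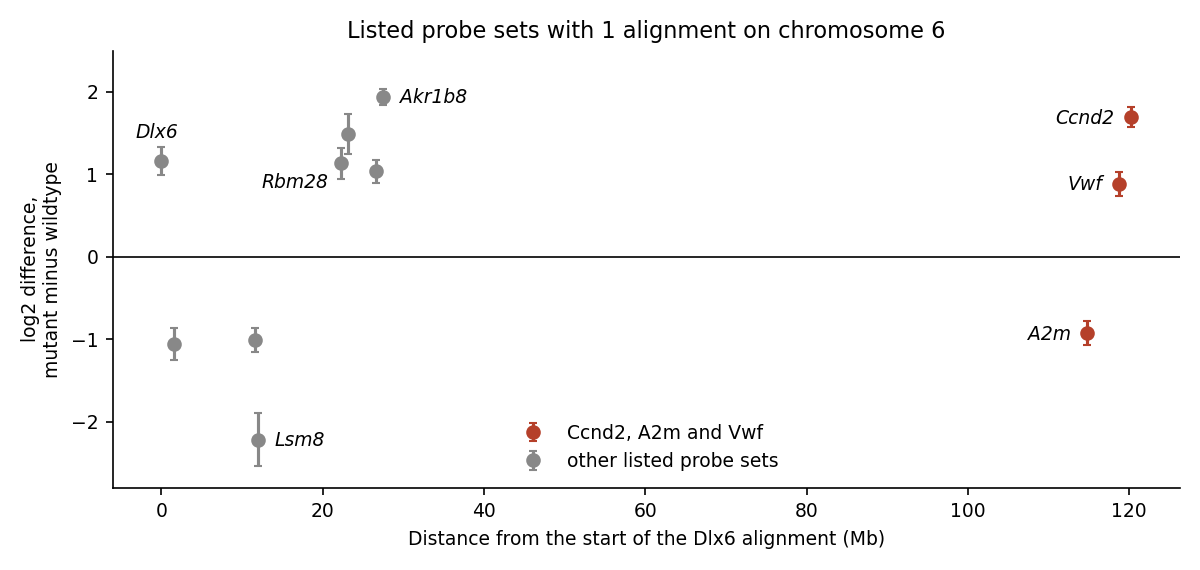
log2 difference, mutant minus wildtype (vertical axis, points with SE bars), of the 11 listed probe sets with 1 alignment on chromosome 6, against distance from the start of the Dlx6 alignment in Mb. The 3 distal genes lie at 115 to 120.3 Mb, with Ccnd2 (1.69) and Vwf (0.89) above 0 and A2m (-0.93) below it.

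Gapdh, the glycolytic enzyme used as an array control, is itself a chromosome 6 gene and lies between A2m and Vwf in the RefSeq order. It was not used to choose the members, so its genotype difference could be tested. Its 3 control probe sets differed by 0.23 to 0.24 on the log2 scale (SE 0.093 to 0.099). None passed the threshold in the limma fit (adjusted p of 0.413 to 0.423, unadjusted p of 0.031 to 0.0331), and 241 of the 45040 probe sets of that fit (0.535%) did. Gapdh in mutant pools and in wildtype pools overlapped at all 3 control probe sets. The 5′ probe set, for example, read 8115 ± 493 in mutant pools and 6845 ± 592 in wildtype pools (SD, n = 5 each).

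The controls of beta-actin, which is not a chromosome 6 gene, differed by a like amount, 0.25 to 0.26 (SE 0.092 to 0.099, limma adjusted p of 0.352 to 0.39), and there the genotypes did not overlap. Margins were narrow in both controls. The lowest mutant pool was 0.982 to 0.9999 times the highest wildtype pool for Gapdh and 1.016 to 1.07 times for beta-actin. After quantile normalization the log2 differences were smaller, 0.048 to 0.091 for Gapdh and 0.057 to 0.099 for beta-actin. When every array was scaled on its Gapdh controls, a choice made after the values were seen, the log2 differences became 1.46 ± 0.12 for Ccnd2, -1.16 ± 0.19 for A2m and 0.65 ± 0.19 for Vwf. The directions were kept under this scaling.

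Sex gave a comparison that the choice of members had not used. In the fit with genotype and sex, the male minus female difference was -0.21 ± 0.12 for Ccnd2 (95% interval -0.48 to 0.05, limma adjusted p = 0.977). For A2m it was 0.03 ± 0.15 (-0.29 to 0.35, limma adjusted p = 0.996) and for Vwf -0.08 ± 0.15 (-0.40 to 0.25, limma adjusted p = 0.982). Of the members 0 of 3 were called, against 12 of 45037 probe sets (0.0266%). The estimate farthest from 0 was that of Ccnd2, lower in males, and its interval reached just past 0.

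The genotype difference, mutant minus wildtype, was then compared between the sexes. For Ccnd2 it was 1.75 ± 0.18 in males and 1.64 ± 0.18 in females, and the difference between them was 0.11 ± 0.25 (95% interval -0.44 to 0.66, limma adjusted p = 0.999). For A2m the values were -0.93 ± 0.22 in males and -0.92 ± 0.22 in females, which differed by -0.0069 ± 0.31 (-0.69 to 0.68, limma adjusted p = 0.999). Ccnd2 and A2m therefore gave nearly the same estimate in both sexes, with wide intervals around the difference.

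Vwf was the member whose estimates lay farthest apart. In males Vwf averaged 58.2 in mutant and 17.4 in wildtype pools, and in females 49.0 in mutant and 26.9 in wildtype pools. The genotype difference was 1.15 ± 0.19 in males and 0.62 ± 0.19 in females. The difference between the sexes, 0.53 ± 0.26, did not pass (95% interval -0.05 to 1.12, unadjusted p = 0.0699, limma adjusted p = 0.999). The fit called 0 of 45037 probe sets (0%) for this difference, with 1744 at an unadjusted p under 0.05. Wildtype replicate 3, a female pool, had the highest Vwf signal of the wildtype pools and bore on the size. Without it the difference between the sexes was 0.35 ± 0.20, and leaving out any 1 pool gave 0.35 to 0.64. The pseudocount also set much of this size: it was 0.80 ± 0.40 with pseudocount 1 and 0.27 ± 0.13 with pseudocount 64.

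**Figure D3:**
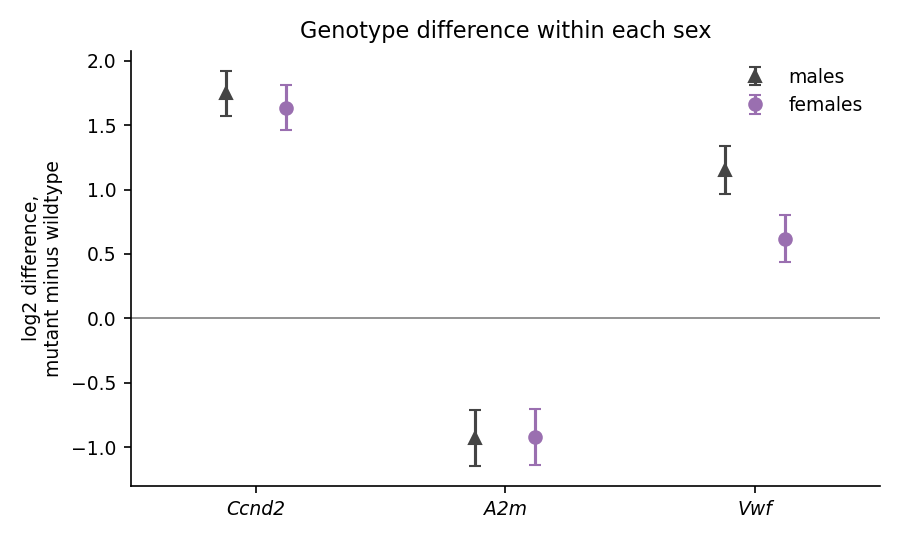
log2 difference, mutant minus wildtype (vertical axis), of Ccnd2, A2m and Vwf within males (triangles, 3 mutant and 2 wildtype pools) and within females (circles, 2 mutant and 3 wildtype pools), with SE bars. Estimates for Ccnd2 (1.75 and 1.64) and A2m (-0.93 and -0.92) are close together, while those for Vwf (1.15 and 0.62) lie farther apart, a difference that did not pass the test.

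Whether the 3 genes vary together was asked within genotype, because pooled values fall into separate clusters by genotype that the choice of members fixed. Each log2 value was expressed as its deviation from the mean of its genotype, and pools were permuted within genotype in an exact test. None of the 3 pairs passed. For Ccnd2 and A2m, Pearson's r was -0.39 (exact permutation p = 0.288, adjusted over the 3 pairs 0.432, n = 10 pools) and Spearman's rho -0.55 (p = 0.129, adjusted 0.387). The signs of the 2 deviations were the same in 2 of 10 pools. For Ccnd2 and Vwf they were the same in 4 of 10 pools, and for A2m and Vwf also in 4 of 10. Without the pools farthest from the Ccnd2 median, wildtype replicate 5 and mutant replicate 4, r of Ccnd2 and A2m was -0.58 (exact permutation p = 0.125).

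For Ccnd2 and Vwf, r was 0.06 (exact permutation p = 0.874, adjusted 0.874) and rho 0.08 (p = 0.84, adjusted 0.84), and without the same 2 pools r was -0.25 (exact permutation p = 0.665). For A2m and Vwf, r was 0.49 (exact permutation p = 0.288, adjusted 0.432) and rho 0.37 (p = 0.326, adjusted 0.489). Without wildtype replicates 2 and 3, the pools farthest from the A2m median, it was 0.35 (exact permutation p = 0.553). The value for A2m and Vwf moved most with wildtype replicates 2 and 3. Wildtype replicate 3 lay 0.37 above its genotype mean for A2m and 0.50 above it for Vwf, and leaving out this pool alone gave r = -0.11. Leaving out wildtype replicate 2 alone gave r = 0.73.

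**Figure D4:**
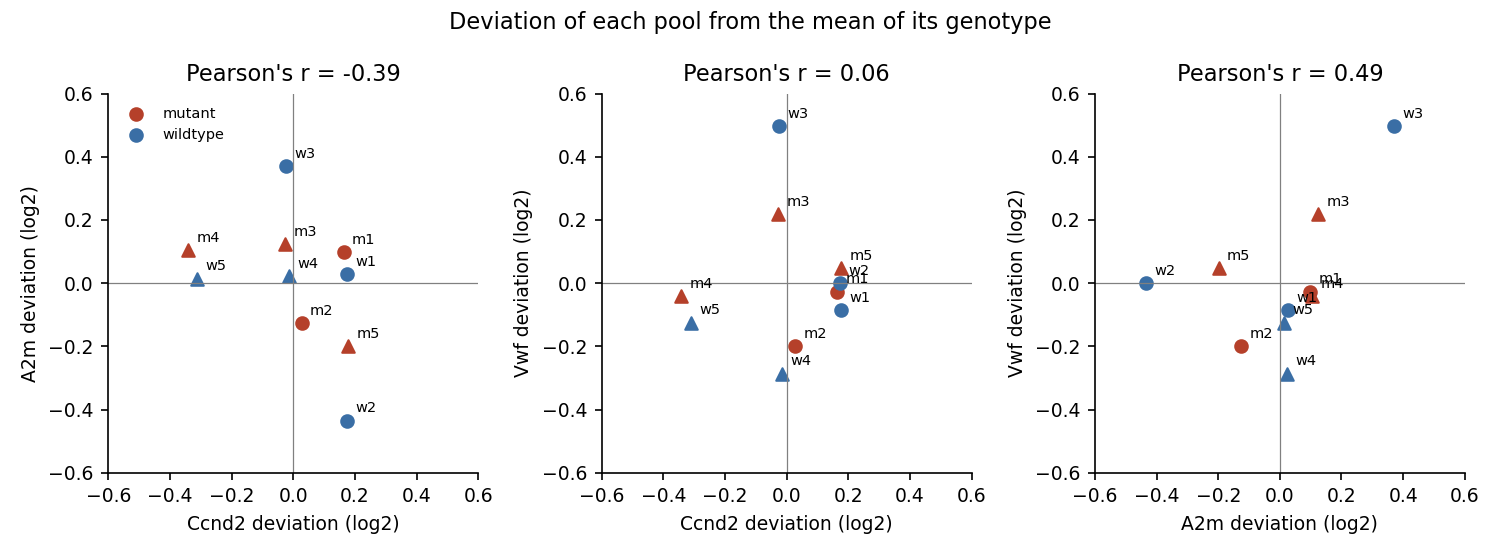
Deviation of each pool from the mean of its genotype, on the log2 scale of both axes, for the 3 pairs of genes, with mutant pools (m) and wildtype pools (w) numbered by replicate, triangles male and circles female. Pearson's r is -0.39, 0.06 and 0.49, and in the panel of A2m and Vwf wildtype replicate 3 stands alone at 0.37 and 0.50.

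Wildtype replicate 3 also stood at the end of the array measures. Its array median signal, 29.3, was the highest of the 10 arrays (23.5 to 28.3 on the others), and its Gapdh controls were the lowest of the 10. The deviations of A2m followed the array median with r = 0.78 and rho = 0.84 (exact permutation p of 0.0289 and 0.00646), and those of Vwf with r = 0.73 and rho = 0.45 (exact permutation p of 0.0614 and 0.204). After adjustment over the 15 relations computed with Evf2, Dlx6 and 3 array measures, none passed (0.325 for both values of r, 0.0969 and 0.551 for rho). Without wildtype replicate 3 and mutant replicate 5, which lay farthest from the centre of this measure, r was 0.42 for A2m and 0.67 for Vwf. With every array centred on its median, r between A2m and Vwf was 0.19. The part of the array medians in the relation of the 2 dim genes was not tested further.

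No relation of the members' deviations with those of Dlx6 or Evf2 passed the test. With Dlx6, r was 0.58 for Ccnd2, 0.11 for A2m and 0.21 for Vwf (exact permutation p of 0.0966, 0.714 and 0.477, and adjusted 0.362, 0.828 and 0.828), and rho was 0.49, 0.05 and 0.28 (adjusted 0.551, 0.953 and 0.701). Without mutant replicates 1 and 5, the pools farthest from the Dlx6 median, r was 0.29 for Ccnd2, 0.69 for A2m and 0.38 for Vwf. With Evf2, r was 0.18 for Ccnd2, 0.21 for A2m and -0.12 for Vwf (exact permutation p of 0.648, 0.545 and 0.717, adjusted 0.828 for each), and rho was -0.25, 0.27 and 0.02 (adjusted 0.715, 0.701 and 0.974). Without wildtype replicate 4 and mutant replicate 1, r with Evf2 was -0.24 for Ccnd2, 0.16 for A2m and 0.50 for Vwf. In all mutant pools but replicate 1, Evf2 (9.47 to 16.5) read below the array medians of the mutant pools (24.2 to 28.3). A relation with the Evf2 level could therefore hardly be seen within the mutant pools. Mutant replicate 1, which kept the highest Evf2 signal of the mutant pools, had Ccnd2 at 2354, A2m at 36.5 and Vwf at 52.9, each inside the range of the other mutant pools.

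Each mutant pool was also given a position on the log2 axis between the remaining mutant pools (their mean set to 0) and wildtype (its mean set to 1). For Ccnd2, mutant replicate 4 lay at 0.246, the pool nearest to wildtype, and the others between -0.138 and 0.0199. For A2m the same pool lay at 0.137, below mutant replicate 3 at 0.162, and for Vwf at 0.0574, below mutant replicate 2 at 0.272. The pool that stood towards wildtype for Ccnd2 was therefore inside the range of the other mutant pools for A2m and Vwf.

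Each member was compared with the singly named probe sets of other genes in the list (63 for each) by the correlation of deviations from genotype means over 10 pools. These probe sets were all chosen on the genotype contrast and share the arrays, so the values are descriptions. Most like Ccnd2 were the 2 probe sets of Paip1, a translation factor gene on chromosome 13 (r of 0.87 and 0.86). Least like it was Sfrp1, a secreted Wnt antagonist (-0.86). These correlations were smaller in size without mutant replicate 4, at 0.78, 0.79 and -0.76. Wildtype replicate 5 was kept in them, though its Ccnd2 deviation (-0.31) was nearly as large as that of mutant replicate 4 (-0.34). The median r over the 63 probe sets was -0.19, and 99% of the 17830 probe sets with a mean signal of 50 or more had an r with Ccnd2 of at most 0.76.

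Most like A2m were Tor3a, a torsin ATPase (r = 0.71), Ermn, a cytoskeletal protein of myelinating cells (0.65), and the actin nucleator Fmn2 (0.57), and least like it was the pseudogene Pisd-ps3 (-0.74). Most like Vwf were the small GTPase Rap2b (0.60), the kinase Mapk8 (0.60) and Tor3a (0.56), and least like it was Trip11, a Golgi protein (-0.74). Paip1, which headed the order for Ccnd2, was in neither of these groups, and Tor3a was in both. None of the genes named here for their likeness aligned to chromosome 6. The bounds that 99% of the 17830 probe sets with a mean signal of 50 or more stayed under were 0.73 for A2m and 0.75 for Vwf. The highest r among the listed probe sets, 0.71 for A2m and 0.60 for Vwf, lay under these bounds. No bound is given here for the lowest r of any member. Tor3a, Fmn2 and Trip11 did not reach a mean signal of 50. They averaged 42.1, 56.4 and 9.89 in mutant pools and 12.9, 17.7 and 38.8 in wildtype pools.

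The genotype differences of the 3 genes kept their directions in all 19 alternative settings. Ccnd2 lay between 1.46 and 1.75, A2m between -1.20 and -0.54 and Vwf between 0.45 and 1.29 on the log2 scale. Leaving out any 1 pool gave 1.62 to 1.75 for Ccnd2, -1.02 to -0.84 for A2m and 0.79 to 0.99 for Vwf. The ranges of A2m and Vwf were set at both ends by the pseudocount and that of Ccnd2 at its low end by the Gapdh scaling.

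**Figure D5:**
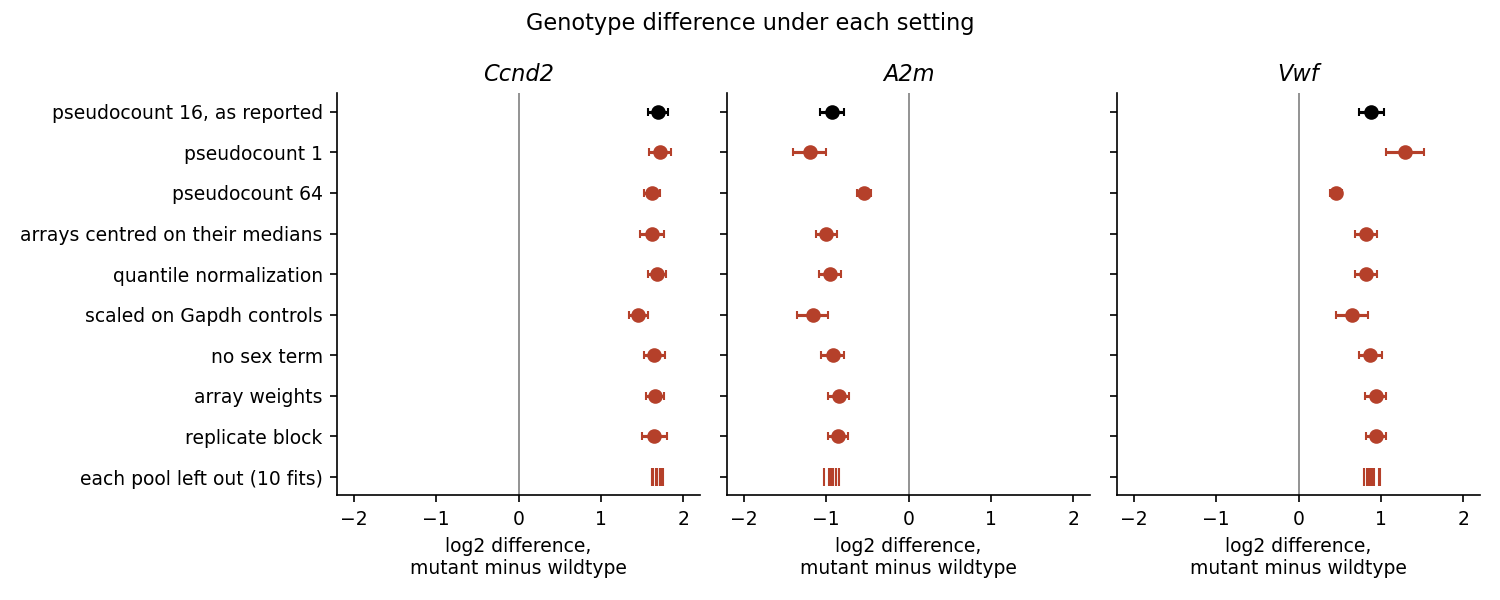
log2 difference, mutant minus wildtype (horizontal axes), of Ccnd2, A2m and Vwf under each setting, with SE bars, and as ticks for the 10 fits that each left out 1 pool. Ccnd2 stays between 1.46 and 1.75, while A2m (-1.20 to -0.54) and Vwf (0.45 to 1.29) move with the pseudocount.

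Other genes of the same pathways could not be set beside the members, because only the authors' deposited table gives gene names. Of 23 genes of cyclin D and G1 to S control, 11 alpha-macroglobulins and protease inhibitors and 9 partners of von Willebrand factor, 0 were named there. The same held for the marker lists of endothelium (12 genes), pericytes (4), erythroid cells (6), microglia and macrophages (7), meninges (5) and platelets (3). Of 12 markers of MGE progenitors and young interneurons only Dlx6 was named. The part of vessel or blood cells in the Vwf and A2m values was therefore not tested, nor was that of progenitor number in the Ccnd2 value.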

How the data were processed

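Biotin-labelled cRNA of 10 MGE pools was read on the Affymetrix Mouse430_2 array, per the labels and file headers. The deposited value table holds a linear intensity for 45101 probe sets, 64 of them controls. Every array had the same mean after 2% of probe sets were trimmed at each end, and the sources used here do not give the summary software. The authors' deposited list of 96 probe sets gives for each a fold change without sign (a ratio), its signed log2 value and an intensity per genotype, and is the only source of gene names. Symbols were updated by Entrez number with RefSeq GRCm38.p6, which matched all 3 members.

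Intensities were analysed as log2(value + 16) with limma 3.58.1 (R 4.3.3): genotype and sex as terms, or 1 mean per genotype and sex, followed by eBayes. Tests were 2-sided, and Benjamini-Hochberg adjustment ran over 45037 probe sets (threshold 0.05). Fits and the permutation test were tested on simulated data. The number of arrays limits the precision. As each pool is its own sample, p-values reflect the spread of pools. Members, lists and tests were chosen with earlier results of these data known. The genes named were the members, Evf2, Dlx6, the array controls, distal listed genes, and for each member the 3 listed probe sets with the highest and the 1 with the lowest correlation of deviations; 1 of these is not reported here. Akr1b8 and the RefSeq neighbours were named after their values or places were seen. Alternatives changed the pseudocount, scaling, weights, terms, intensity trend and filter, added the replicate number, and left out each pool.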

Additional observations from a re-analysis of the deposited data

Results flagged for a closer look

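In 44 groups of 5 pools, covering the members, Evf2, Dlx6, the array controls and the probe sets most and least like the members, 7 held a pool far from the other 4. Chance gives about 1 in 20 for independent groups that were not picked by their values. These groups share arrays, some are probe sets of the same gene, and some were picked for their likeness to a member. The count of 7 is therefore not set against that rate. None of the 7 was a value of Ccnd2, A2m or Vwf. The nearest was Vwf in wildtype pools, where the gap of wildtype replicate 3 to the next pool was 0.695 of the group's range, against a limit of 0.71.

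Mutant replicate 4 held 3 of the values: the Paip1 probe sets at 490 (769 to 830 in the other mutant pools) and 232 (359 to 385), and Sfrp1 at 289 (111 to 161). Mutant replicate 1 held 2, Evf2 (Dlx6os1) at 58.1 (9.47 to 16.5) and Rap2b at 223 (138 to 161). Mutant replicate 5 held 2, the middle control probe sets of Gapdh at 8654 (7301 to 7606) and of beta-actin at 8002 (6653 to 6896).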

How the results depend on the processing

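No test of a member passed under any setting, for sex, for its difference in genotype effect between sexes or for a correlation (lowest adjusted p of 0.786, 0.954 and 0.191). The genotype differences moved by more than 1 SD at pseudocount 1 (A2m -1.20, Vwf 1.29), at pseudocount 64 (A2m -0.54, Vwf 0.45) and, added after seeing the data, under Gapdh scaling (Ccnd2 1.46, A2m -1.16, Vwf 0.65). Without the genotype term the sex differences changed sign (Ccnd2 0.12, A2m -0.16, Vwf 0.10). Leaving out 1 pool gave sex differences of -0.069 to 0.11 (A2m) and -0.17 to 0.029 (Vwf), and differences between sexes of -0.035 to 0.26 (Ccnd2) and -0.20 to 0.20 (A2m, also 0.0011 at pseudocount 64). The r of Ccnd2 and Vwf was -0.022 on median-centred arrays, -0.22 from means of genotype and sex, -0.25 without the 2 farthest pools, -0.084 to 0.18 without 1 pool and 0.46 under Gapdh scaling. That of Ccnd2 and A2m was 0.075 under Gapdh scaling, and that of A2m and Vwf -0.11 to 0.73 without 1 pool. Causes were not tested. Vwf had a mean signal under 50 and gave no value under that filter. Replicate numbers did not pair pools (correlations of same-numbered deviations of 0.006 to 0.0404); a replicate block gave 1.65 (Ccnd2), -0.86 (A2m) and 0.94 (Vwf). The Gapdh controls passed under no setting (lowest adjusted p 0.126 with beta-actin included). The dim signals of A2m and Vwf limit the size of their differences.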
